A study of Mus musculus with 6 samples.

Results

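The presynaptic vesicle release genes comprise 39 genes that encode the proteins of the synaptic vesicle, the SNARE proteins that fuse it, the calcium sensors that trigger fusion and the scaffold of the active zone. They were taken from the deposited gene table by symbol, from a list of names. All 39 symbols were among the 51912 genes of the table, and 38 of them had enough reads to be tested. The expression of these genes was measured by RNA sequencing of hippocampus from 2 inbred mouse strains, with 3 libraries per strain. One group was DBA/2 hippocampus and the other C57BL/6 hippocampus, and the labels name no treatment, substrain, sex, age or allele for either. They describe RNA drawn from 3 frozen hippocampi of a strain and do not say whether each library is 1 animal, so that p-values measure only the spread between these libraries. DBA/2 and C57BL/6 are inbred strains that are often compared in studies of behaviour and of alcohol and drug responses.

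At a nerve terminal, synaptic vesicles are filled with transmitter, tethered and primed at the active zone, and fused with the plasma membrane when calcium enters. Fusion is driven by the SNARE proteins of vesicle and plasma membrane, is restrained and sharpened by complexins, and is triggered by synaptotagmins, which bind calcium through paired C2 domains. The hippocampus is rich in glutamatergic terminals, and its mossy fibre and Schaffer collateral synapses are standard preparations for the study of release.

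The libraries held 16912153, 16807559 and 13839366 counts in DBA/2, against 16826010, 13867280 and 20185683 counts in C57BL/6. Vesicle release genes took 1.63%, 1.64% and 1.68% of those counts in DBA/2, against 1.59%, 1.62% and 1.58% in C57BL/6. The female-specific transcript Xist had 12, 10 and 2 counts in the DBA/2 libraries, against 3214, 1 and 6995 counts in the C57BL/6 libraries. C57BL/6 replicates 1 and 3 thus stood apart, and leaving both out kept 1 C57BL/6 library, which is then assumed to vary like the DBA/2 libraries. The part of this difference in the results below was not tested beyond the values given without those libraries.

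Of the 38 tested genes, 10 differed between the strains at an adjusted p under 0.05 (edgeR quasi-likelihood test, Benjamini-Hochberg adjustment over all 17517 genes tested). Unc13b, Bsn, Syt5, Syngr1 and Cplx2 were higher in DBA/2, and Vamp1, Rims3, Syt11, Unc13c and Vamp2 were lower. The 10 genes are 26.3% of those tested, beside 22.8% of all genes tested, and 28.1% of the genes with a mean of at least 50 CPM (counts scaled for library size by TMM), a level that 32 of the 39 release genes reached. Over all genes, 9.09% were called higher in DBA/2 and 13.7% lower. The release genes were thus called about as often as other genes.

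On GRCm38 (GENCODE M21), the 5 genes higher in DBA/2 are Unc13b at chr4:43058953-43264871, Bsn at chr9:108096022-108190384, Syt5 at chr7:4539765-4547541, Syngr1 at chr15:80091334-80119501 and Cplx2 at chr13:54371349-54383917. The 5 lower genes are Vamp1 at chr6:125215551-125245964, Rims3 at chr4:120854816-120896579, Syt11 at chr3:88744700-88775164, Unc13c at chr9:73479422-73968966 and Vamp2 at chr11:69088490-69092384. None of the 10 shares exon bases with a gene on the opposite strand. Bsn shares 57 bases, 0.4% of its exons, with a gene on its own strand. Larger overlaps were found only in genes that were not called, among them Doc2a (39.4%), Syt12 (17.2%), Syp (16.8%), Syt4 (14.5%), Syn3 (14.1%) and Erc1 (11.8%).

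The differences were small. The median absolute log2 fold change of the tested release genes was 0.085, beside 0.150 over all tested genes, and for the called ones it was 0.210, beside 0.471 over all called genes. The signed median was 0.025, beside 0.003 over all tested genes. 20 release genes had an absolute log2 fold change under 0.1, and 3 had one of at least 0.5, a size reached by 16.3% of all tested genes. Of the release genes 32 had a mean of at least 50 CPM, beside 4756 of the 17517 tested genes. The sizes of change were not compared among genes of similar level. In 16 of the 38 genes no DBA/2 library overlapped with a C57BL/6 library, 8 with DBA/2 higher and 8 with DBA/2 lower. This is 42.1% of the genes, beside 36.8% of all tested genes. The 16 were the 10 called genes together with Nsf, Syn2 and Sv2a, which were higher in every DBA/2 library, and Cplx1, Sv2c and Slc17a6, which were lower in every DBA/2 library.

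**Figure D1:**
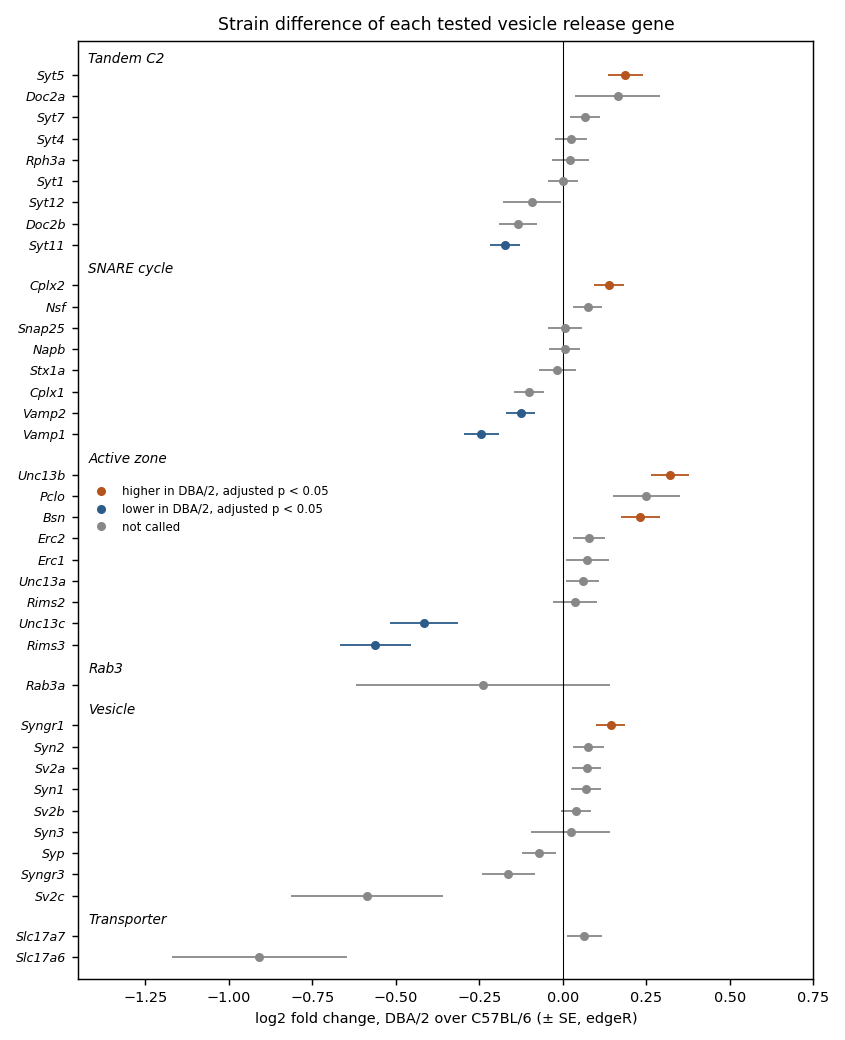
Log2 fold change of DBA/2 over C57BL/6 (horizontal axis, log2 scale) for each of the 38 tested genes, ordered within 6 role groups; points are edgeR estimates, bars are standard errors, and colour marks the call. Most points lie close to 0, and the active zone group holds both the highest value, 0.32 for Unc13b, and the lowest of a called gene, -0.56 for Rims3.

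The active zone and priming group had 4 called genes among 9 tested, 2 in each direction. Unc13b encodes Munc13-2, one of the Munc13 proteins that open syntaxin and make vesicles ready to fuse. It had 108, 101.4 and 115 CPM in the DBA/2 libraries, against 82.2, 90.9 and 86.8 CPM in the C57BL/6 libraries. Every DBA/2 library lay above every C57BL/6 library, and the log2 fold change was 0.32 ± 0.058 (SE, n = 3 each, adjusted p = 0.000171). Without the 2 libraries high in Xist it was not called, at a log2 fold change of 0.25. Bsn encodes Bassoon, a very large scaffold protein of the active zone. It had 498, 567 and 519 CPM in DBA/2, against 426, 432 and 490 CPM in C57BL/6. The groups did not overlap, although the highest C57BL/6 library came close to the lowest DBA/2 library. The log2 fold change was 0.23 ± 0.058 (SE, adjusted p = 0.00612), and Bsn was the only release gene called in all 17 alternative fits, with adjusted p between 8.65e-06 and 0.042.

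Rims3 encodes a short RIM protein that lacks most domains of the long RIM scaffolds. It had 82.4, 90.2 and 77.4 CPM in DBA/2, against 141, 106 and 121 CPM in C57BL/6. All DBA/2 libraries were lower, with a log2 fold change of -0.56 ± 0.11 (SE, n = 3 each, adjusted p = 0.00673). The adjusted p was 0.0501 without DBA/2 replicate 1, and the fold change stayed between -0.65 and -0.45 when any 1 library was left out. Without both libraries high in Xist it was -0.34 (adjusted p = 0.00721). Unc13c encodes Munc13-3, a priming protein best known from cerebellar granule cells. It had 28.4, 34.9 and 30.8 CPM in DBA/2, against 48.3, 36.6 and 40.2 CPM in C57BL/6. DBA/2 replicate 2 and C57BL/6 replicate 2 lay close together, but the groups did not overlap. The log2 fold change was -0.41 ± 0.10 (SE, adjusted p = 0.00806). It was not called without the libraries high in Xist (log2 fold change -0.22, adjusted p = 0.301) or in limma on the authors' FPKM values (adjusted p = 0.0574 and 0.0566 with pseudocounts of 1 and 0.1).

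Called genes of the active zone and priming group moved in both directions, as did those of the SNARE and tandem C2 groups below. The sequences before the RefSeq transcription starts of the 4 active zone genes, the called genes of 1 such group, are shown. Each is the 250 bases before the start on the gene's strand (RefSeq, GRCm38.p6), 5′ to 3′, with capitals marking matches to the motifs searched. The windows are chr4:43058703-43058952 (plus strand) for Unc13b, chr9:108190384-108190633 (minus strand) for Bsn, chr4:120854549-120854798 (plus strand) for Rims3 and chr9:73969038-73969287 (minus strand) for Unc13c.
Unc13b: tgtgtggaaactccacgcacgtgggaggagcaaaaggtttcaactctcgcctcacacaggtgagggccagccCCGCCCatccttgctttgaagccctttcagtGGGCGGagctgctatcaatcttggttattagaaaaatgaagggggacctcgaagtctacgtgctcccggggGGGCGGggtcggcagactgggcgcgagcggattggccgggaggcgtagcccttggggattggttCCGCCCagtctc
Bsn: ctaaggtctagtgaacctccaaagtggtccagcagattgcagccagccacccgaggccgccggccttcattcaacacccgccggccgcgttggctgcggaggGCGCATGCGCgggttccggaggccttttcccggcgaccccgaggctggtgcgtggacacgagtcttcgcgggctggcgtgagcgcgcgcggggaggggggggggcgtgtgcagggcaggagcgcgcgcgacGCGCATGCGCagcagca
Rims3: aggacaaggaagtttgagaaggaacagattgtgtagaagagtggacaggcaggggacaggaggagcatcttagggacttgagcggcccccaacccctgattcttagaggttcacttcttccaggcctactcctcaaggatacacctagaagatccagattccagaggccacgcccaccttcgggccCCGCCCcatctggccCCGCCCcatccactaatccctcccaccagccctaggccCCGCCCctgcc
Unc13c: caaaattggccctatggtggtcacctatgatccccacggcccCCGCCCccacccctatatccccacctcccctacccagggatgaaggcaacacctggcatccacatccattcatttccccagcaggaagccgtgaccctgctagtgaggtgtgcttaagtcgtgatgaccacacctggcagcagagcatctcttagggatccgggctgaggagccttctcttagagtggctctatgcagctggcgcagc

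4 motifs were searched on both strands: the GC box GGGCGG, the NRF1 site (GCGCA followed by its reverse complement), the cAMP response element TGACGTCA and the TATA box TATAAA, none of which overlapped in these windows. The Bsn window held 2 matches to the NRF1 letters, which were present in 0.777% of 32817 RefSeq promoter windows of the same length. The Unc13b window held 4 GC boxes, the Rims3 window 3 and the Unc13c window 1, a motif found in 32.7% of all windows. CpG dinucleotides numbered 16 in Unc13b, 32 in Bsn, 6 in Rims3 and 6 in Unc13c, beside a median of 6 over all windows. The bases after the RefSeq start were found in a GENCODE transcript of the gene for Unc13b and Bsn, but not for Rims3 and Unc13c. Windows were found for 8 of the 10 called genes. The bases after the start were also found for Syngr1, Syt11 and Vamp1, but not for Cplx2. The Cplx2 window, at chr13:54302306-54302555, lies far before the GENCODE start of the gene. The Syt11 window, at chr3:88772600-88772849, lies inside the GENCODE gene. The cAMP response element, found in 1.55% of all windows, and the TATA box, found in 12.4%, were in none of the 8 windows. A match is a description of the letters only.

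The other active zone genes were not called. Unc13a encodes Munc13-1, the main priming protein of forebrain glutamatergic synapses, and it had the highest level per exonic length of the group. It had 470, 468 and 501 CPM in DBA/2, against 427, 472 and 481 CPM in C57BL/6, and the groups overlapped (log2 fold change 0.06 ± 0.050, SE, adjusted p = 0.435). Pclo encodes Piccolo, the large scaffold related to Bassoon. It had 368, 466 and 420 CPM in DBA/2, against 325, 345 and 385 CPM in C57BL/6, with overlap between DBA/2 replicate 1 and C57BL/6 replicate 3. Its log2 fold change of 0.25 ± 0.099 (SE) had an adjusted p of 0.13, and it was called in 5 of 17 alternative fits. The adjusted p was 0.0013 without DBA/2 replicate 1 and 0.0232 without C57BL/6 replicate 3. Rims2, Erc1 and Erc2, which encode the long RIM2 scaffold and the ELKS proteins that bind it, had log2 fold changes of 0.04, 0.07 and 0.08, with overlapping libraries. Rims1 had 1, 3 and 2 counts in DBA/2, against 1, 1 and 0 counts in C57BL/6, all at or under a floor of 3 counts per library, and was not tested.

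Of the 8 genes of the SNARE cycle, 1 was called higher in DBA/2 and 2 were called lower. Cplx2 encodes complexin 2, which binds assembled SNARE complexes. It had 1366, 1363 and 1453 CPM in DBA/2, against 1241, 1289 and 1267 CPM in C57BL/6. Every DBA/2 library was above every C57BL/6 library (log2 fold change 0.14 ± 0.045, SE, n = 3 each, adjusted p = 0.0259). The call was lost without DBA/2 replicate 3 (adjusted p = 0.123), C57BL/6 replicate 1 (0.12) or C57BL/6 replicate 3 (0.0719). The call was also lost without both libraries high in Xist, where the log2 fold change was 0.12. Cplx1, which encodes the closely related complexin 1, had 486, 499 and 501 CPM in DBA/2, against 559, 520 and 515 CPM in C57BL/6. It was lower in every DBA/2 library but was not called (log2 fold change -0.10 ± 0.045, SE, adjusted p = 0.124).

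Both vesicle SNARE genes were lower in DBA/2. Vamp1 encodes synaptobrevin 1, which is most used in hindbrain, spinal cord and some interneurons. It had 124, 128 and 127 CPM in DBA/2, against 161, 142 and 146 CPM in C57BL/6. The DBA/2 libraries lay within a narrow band below all C57BL/6 libraries (log2 fold change -0.24 ± 0.052, SE, adjusted p = 0.00115). The call was lost only without the libraries high in Xist, where the log2 fold change was -0.16. Vamp2 encodes synaptobrevin 2, the main vesicle SNARE of forebrain terminals. It had 787, 768 and 775 CPM in DBA/2, against 862, 860 and 820 CPM in C57BL/6. The groups did not overlap, but the log2 fold change of -0.13 ± 0.044 (SE) was small and its adjusted p of 0.0398 was the highest of the called genes. Vamp2 was called in 6 of 17 alternative fits. It lost the call without DBA/2 replicate 1, 2 or 3 (adjusted p = 0.061, 0.0678 and 0.1), without C57BL/6 replicate 1 or 2 (0.161 and 0.143), and when scaled by library size alone (0.0936). Without both libraries high in Xist it was not called either, at a log2 fold change of -0.14.

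The plasma membrane SNARE genes did not pass the test. Snap25 encodes SNAP-25, and had the highest level per length of the SNARE cycle genes over all 6 libraries together, although Cplx2 averaged higher in DBA/2. It had 1911, 1777 and 1972 CPM in DBA/2, against 1922, 1957 and 1752 CPM in C57BL/6. The libraries were interleaved (log2 fold change 0.01 ± 0.051, SE, adjusted p = 0.944). Stx1a, which encodes syntaxin 1A, had a log2 fold change of -0.02 and Napb, which encodes beta-SNAP, one of 0.01. Nsf encodes the ATPase that takes used SNARE complexes apart. It had 1017, 1061 and 1065 CPM in DBA/2, against 992, 999 and 993 CPM in C57BL/6, without overlap, but did not pass the test (log2 fold change 0.07 ± 0.043, SE, adjusted p = 0.241).

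**Figure D2:**
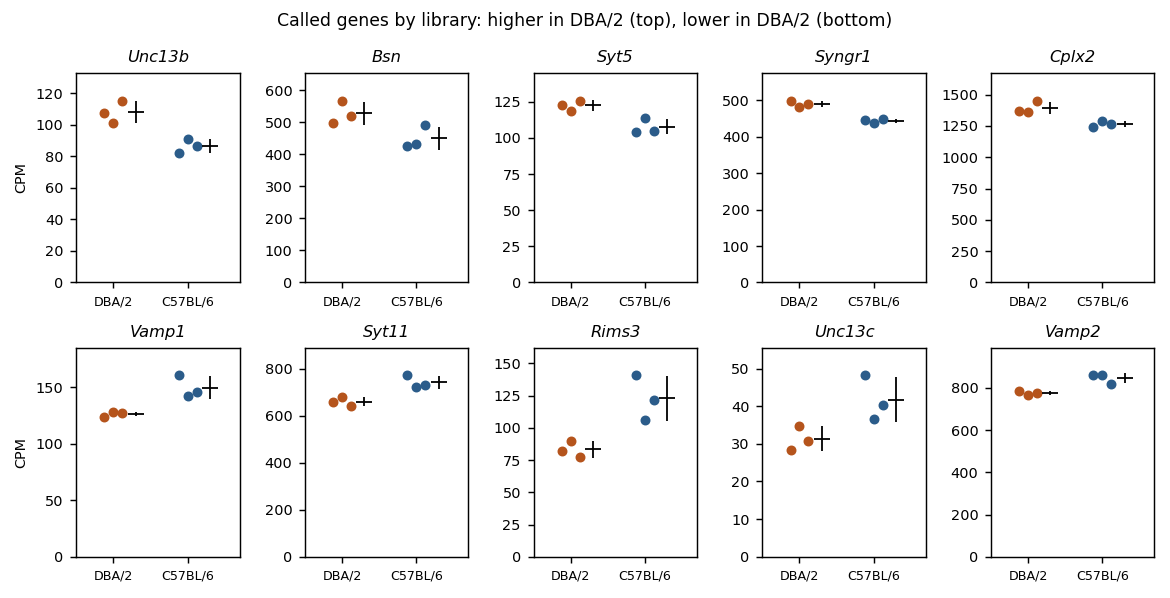
CPM of the 10 called genes in each library (vertical axis from 0; points are libraries, crosses the mean ± SD of 3). In the top row the DBA/2 points lie above the C57BL/6 points and in the bottom row below them, with the widest relative gap in Rims3, at 82.4, 90.2 and 77.4 CPM in DBA/2, against 141, 106 and 121 CPM in C57BL/6.

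Among the 9 tandem C2 genes, 1 was called higher and 1 lower in DBA/2. Syt5 encodes synaptotagmin 5, a calcium-binding relative of the main sensor. It had 123, 119 and 126 CPM in DBA/2, against 104, 114 and 105 CPM in C57BL/6. The groups did not overlap (log2 fold change 0.19 ± 0.052, SE, n = 3 each, adjusted p = 0.0102). The adjusted p was 0.0638 without C57BL/6 replicate 1, 0.0509 without C57BL/6 replicate 3 and 0.528 without both, where the log2 fold change was 0.11. Syt11 encodes synaptotagmin 11, whose C2 domains do not bind calcium. It had 657, 679 and 641 CPM in DBA/2, against 773, 722 and 732 CPM in C57BL/6. Each DBA/2 library was lower (log2 fold change -0.17 ± 0.045, SE, adjusted p = 0.00673), and the call was lost without C57BL/6 replicate 1 (adjusted p = 0.0698). The call was also lost without both libraries high in Xist, where the log2 fold change was -0.13.

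Syt1, which encodes the calcium sensor for fast synchronous release in hippocampal neurons, was the most abundant C2 gene per length and was not called. It had 1389, 1467 and 1446 CPM in DBA/2, against 1388, 1469 and 1445 CPM in C57BL/6. The log2 fold change was 0.00 ± 0.045 (SE, adjusted p = 0.999), and its sign changed with the scaling. Doc2b encodes a high-affinity calcium sensor linked to spontaneous release. It had 90.9, 93.9 and 105 CPM in DBA/2, against 109, 105 and 104 CPM in C57BL/6. The groups overlapped through DBA/2 replicate 3, and the adjusted p of 0.0939 was 0.0217 without it, for a log2 fold change of -0.13 ± 0.056 (SE) with all libraries. Leaving out any other single library gave an adjusted p between 0.125 and 0.352, and Doc2b was called in 1 of 17 alternative fits. The remaining 5 genes of the group, Syt4, Syt7, Syt12, Doc2a and Rph3a, overlapped between strains, with log2 fold changes between -0.09 for Syt12 and 0.16 for Doc2a. The exon bases that Doc2a shares lie in Ino80e on the opposite strand, and whether counting used the strand is unknown.

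The vesicle membrane and synapsin group had 1 called gene among 9. Syngr1 encodes synaptogyrin 1, a membrane protein of small synaptic vesicles. It had 500, 481 and 490 CPM in DBA/2, against 445, 437 and 449 CPM in C57BL/6. The groups were well separated although the difference was small (log2 fold change 0.14 ± 0.043, SE, n = 3 each, adjusted p = 0.0175). The adjusted p was 0.0538 without DBA/2 replicate 1, 0.0563 without C57BL/6 replicate 1 and 0.0725 without C57BL/6 replicate 2. Without both libraries high in Xist the gene was not called, at a log2 fold change of 0.17. Syngr3 encodes a related synaptogyrin. It had 124, 117 and 148 CPM in DBA/2, against 139, 154 and 142 CPM in C57BL/6. DBA/2 replicate 3 lay among the C57BL/6 libraries, and the adjusted p of 0.178 was 0.00217 without it (log2 fold change -0.16 ± 0.079, SE, with all libraries). Leaving out any other single library gave an adjusted p between 0.186 and 0.422, and Syngr3 was called in 2 of 17 alternative fits.

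Sv2c encodes a member of the SV2 family of vesicle glycoproteins that is best known from basal ganglia and brainstem. It had 24.8, 37.4 and 21.5 CPM in DBA/2, against 41.9, 39.1 and 45.1 CPM in C57BL/6. All DBA/2 libraries were lower, but DBA/2 replicate 2 lay near the C57BL/6 range. With all libraries the log2 fold change was -0.59 ± 0.23 (SE, adjusted p = 0.16), and without DBA/2 replicate 2 it was -0.86 with an adjusted p of 9.87e-08. Leaving out any other single library gave an adjusted p between 0.186 and 0.349, and Sv2c was called in 2 of 17 alternative fits. Syp encodes synaptophysin, the classic vesicle marker, and had the highest level per length of the group. It had 859, 811 and 929 CPM in DBA/2, against 921, 941 and 870 CPM in C57BL/6, with overlap (log2 fold change -0.07 ± 0.051, SE, adjusted p = 0.35). The synapsin genes Syn1, Syn2 and Syn3, whose proteins tie vesicles into the reserve pool, had log2 fold changes of 0.07, 0.08 and 0.02. Sv2a and Sv2b had 0.07 and 0.04, and none of these 5 genes was called.

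Rab3a, which encodes the main Rab GTPase of synaptic vesicles, had 20, 20 and 7 counts in DBA/2, against 18, 8 and 33 counts in C57BL/6. The libraries overlapped (log2 fold change -0.24 ± 0.38, SE, adjusted p = 0.72), and at this depth the interval is wide. Per length it averaged 0.43 ± 0.17 FPKM in DBA/2 and 0.49 ± 0.24 FPKM in C57BL/6 (SD, n = 3 each). Rph3a, whose protein rabphilin binds Rab3, averaged 70.0 FPKM in DBA/2 and 67.7 FPKM in C57BL/6. Rab3a protein is abundant in brain, and no source at hand states how the reads of Rab3a and Rims1 were assigned, so that their levels are not read here as abundance.

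Per exonic length the most abundant release genes were those of the SNARE cycle and the vesicle. The length used was the deposited exonic length of each gene, not that of a transcript, and the order of genes depends on it. Snap25 averaged 280 ± 14 FPKM in DBA/2 and 274 ± 15 FPKM in C57BL/6 (SD, n = 3 each). Cplx2 averaged 285 ± 9.5 FPKM in DBA/2 and 254 ± 5.1 FPKM in C57BL/6, and its libraries overlapped with those of Snap25 in both strains. Cplx1 averaged 228 ± 3.8 FPKM in DBA/2 and 240 ± 10 FPKM in C57BL/6, and it lay below Cplx2 in every library except C57BL/6 replicate 1. Slc17a7, at 213 ± 12 FPKM in DBA/2 and 200 ± 13 FPKM in C57BL/6, and Vamp2, at 205 ± 2.4 FPKM in DBA/2 and 220 ± 5.5 FPKM in C57BL/6, were in opposite order in the strains, with neighbouring levels. Syt1, Syp and Syn1 followed, at 173, 167 and 158 FPKM in DBA/2, against 170, 173 and 148 FPKM in C57BL/6. The active zone genes were lower, from 38.3 FPKM for Unc13a to 3.59 FPKM for Unc13c in DBA/2, against a range of 36.1 FPKM for Unc13a to 3.70 FPKM for Erc1 in C57BL/6, leaving out Rims1.

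The vesicular glutamate transporters load glutamate into vesicles. Slc17a7 encodes VGLUT1, the form of cortical and hippocampal neurons. It had 1167, 1067 and 1191 CPM in DBA/2, against 1047, 1174 and 1055 CPM in C57BL/6, with interleaved libraries (log2 fold change 0.06 ± 0.052, SE, adjusted p = 0.433). Slc17a6 encodes VGLUT2, the form of thalamus and other subcortical nuclei. It had 47.4, 35.3 and 30.5 CPM in DBA/2, against 89.8, 57.8 and 65.8 CPM in C57BL/6. Every DBA/2 library was lower, and the log2 fold change of -0.91 ± 0.26 (SE) was the lowest of the release genes. The adjusted p was 0.0868, and Slc17a6 was called in 5 of 17 alternative fits, among them the DESeq2 Wald test (0.0079) and limma-voom (0.000297).

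Markers of thalamus and habenula, which adjoin the hippocampus, were lower as well. Of 18 such markers, 13 were called lower in DBA/2, beside 13.7% of all tested genes, and none was called higher. This list, like the other marker lists below, was chosen with earlier results of these data known. All 18 had a negative log2 fold change, and none was at 0 in all libraries. Their summed level was 634, 600 and 537 CPM in DBA/2, against 1122, 829 and 932 CPM in C57BL/6. The 6 libraries fell in the same order for this sum and for Slc17a6, with C57BL/6 replicate 1 highest and DBA/2 replicate 3 lowest. Rims3 and Unc13c were also highest in C57BL/6 replicate 1 and next in C57BL/6 replicate 3, but DBA/2 replicate 2, not 1, was the highest DBA/2 library for Rims3, Unc13c and Sv2c. The part of the thalamic markers in these values was not tested. In bulk tissue, fewer cells of a type and less RNA per cell cannot be told apart.

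**Figure D3:**
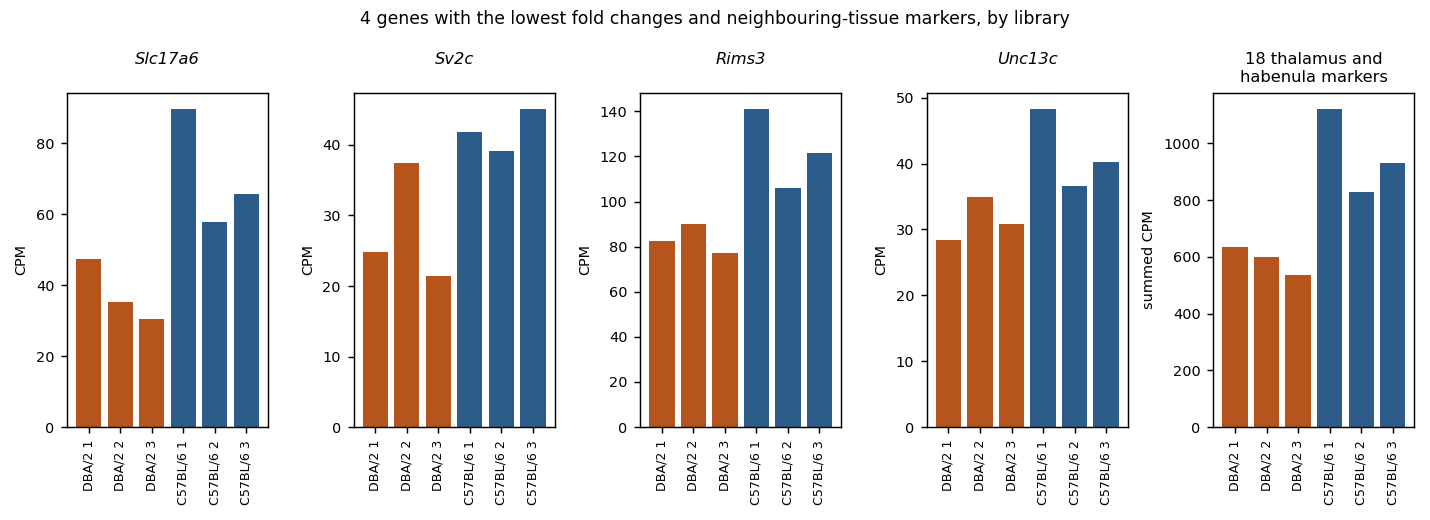
CPM of the 4 genes with the lowest fold changes and the summed CPM of 18 thalamus and habenula markers in each library (bars from 0). Slc17a6 and the marker sum share 1 order of libraries, at 47.4, 35.3 and 30.5 CPM for Slc17a6 in DBA/2, against 89.8, 57.8 and 65.8 CPM in C57BL/6.

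Other cell type markers were called in shares above and below the 22.8% of all tested genes. The numbers of higher and lower markers below are of called markers. Of 13 myelin markers 4 were called lower in DBA/2, and all 13 had a negative log2 fold change. Their sums were 6471, 5921 and 4798 CPM in DBA/2, against 8898, 7127 and 7685 CPM in C57BL/6. Of 12 microglial markers 7 were lower, and of 12 astrocyte markers 7 were lower and 2 higher. The 12 pan-neuronal markers had 4 lower genes, a median log2 fold change of 0.02, and sums of 5985, 6358 and 6357 CPM in DBA/2, against 7397, 7770 and 7607 CPM in C57BL/6. The gap lay in the noncoding RNA gene Snhg11, at 1312, 1471 and 1447 CPM in DBA/2, against 2621, 2960 and 2857 CPM in C57BL/6. Without it, a sum taken after its values were seen, the other 11 markers had 4673, 4887 and 4910 CPM in DBA/2, against 4776, 4810 and 4750 CPM in C57BL/6. CA1 and CA2 markers were 3 higher and 4 lower of 12, CA3 markers 3 lower of 10, dentate granule markers 5 higher and 3 lower of 12, and inhibitory neuron markers 2 higher and 1 lower of 14. Markers of neocortex and striatum were 3 higher of 12, of vessels 2 higher and 1 lower of 12, and of choroid plexus and ependyma 1 lower of 11. The part of these differences in the values of the release genes was not tested.

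Within families of related release genes, the share of each paralog in the summed FPKM was compared, since a share does not depend on the scaling between libraries. Counting each 2-gene family once and leaving out Rims1, 11 of 22 shares did not overlap between strains. The 36.8% of all tested genes that did not overlap in CPM is not a background for shares, and none was computed. Shares within a family depend on each other. Rims2 and Rims3, nearly mirror images once Rims1 is set aside, are both among the 11. Each gives an exact two-sided permutation p of 0.1, the smallest that 3 against 3 libraries allow. No adjustment over the 22 shares compared could bring it lower. Rims3 made up 49.8%, 47.5% and 44.2% of the RIM sum in DBA/2, against 60.9%, 54.5% and 56.5% in C57BL/6. Rims2 held nearly all the rest, at 52.8 ± 2.8% in DBA/2 and 42.7 ± 3.3% in C57BL/6 (SD, n = 3 each). These shares rest on the deposited exonic lengths, and no order of Rims2 and Rims3 within a strain is read from them. Within the Munc13 genes, Unc13b made up 10.3 ± 0.41% in DBA/2 and 8.47 ± 0.28% in C57BL/6. Unc13c made up 7.70 ± 0.87% in DBA/2 and 10.6 ± 1.9% in C57BL/6, and Unc13a, at 82.0 ± 0.47% in DBA/2 and 80.9 ± 1.9% in C57BL/6, overlapped.

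Complexin and synaptogyrin shares did not overlap either. Cplx2 made up 55.5 ± 0.74% of the complexin sum in DBA/2 and 51.4 ± 1.5% in C57BL/6 (SD, n = 3 each). Syngr1 made up 62.1 ± 2.8% of its pair in DBA/2 and 56.9 ± 1.6% in C57BL/6. Syt4 made up 29.7 ± 1.3% of the Syt4 and Syt11 sum in DBA/2 and 27.0 ± 0.55% in C57BL/6. In the sum of Syt1, Syt5 and Syt7, Syt1 made up 59.3 ± 1.5% in DBA/2 and 61.3 ± 0.32% in C57BL/6. Syt5 made up 17.8 ± 0.44% of that sum in DBA/2 and 16.1 ± 0.48% in C57BL/6, and the Syt7 share overlapped. Sv2c made up 1.93 ± 0.58% of the SV2 sum in DBA/2 and 2.99 ± 0.23% in C57BL/6, and the Sv2a and Sv2b shares overlapped. Slc17a6 was a minor part of the glutamate transporter sum in both strains, at 3.20 ± 0.70% in DBA/2 and 6.15 ± 1.6% in C57BL/6. Synapsin, ELKS, Doc2, Vamp and Bassoon-Piccolo shares overlapped. Bsn made up 64.1 ± 1.3% of its pair in DBA/2 and 64.3 ± 0.51% in C57BL/6, and the Bsn and Pclo levels stood in nearly the same ratio in both strains. Vamp1 made up 5.75 ± 0.16% of the synaptobrevin sum in DBA/2 and 6.21 ± 0.36% in C57BL/6 (exact two-sided permutation p = 0.2).

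**Figure D4:**
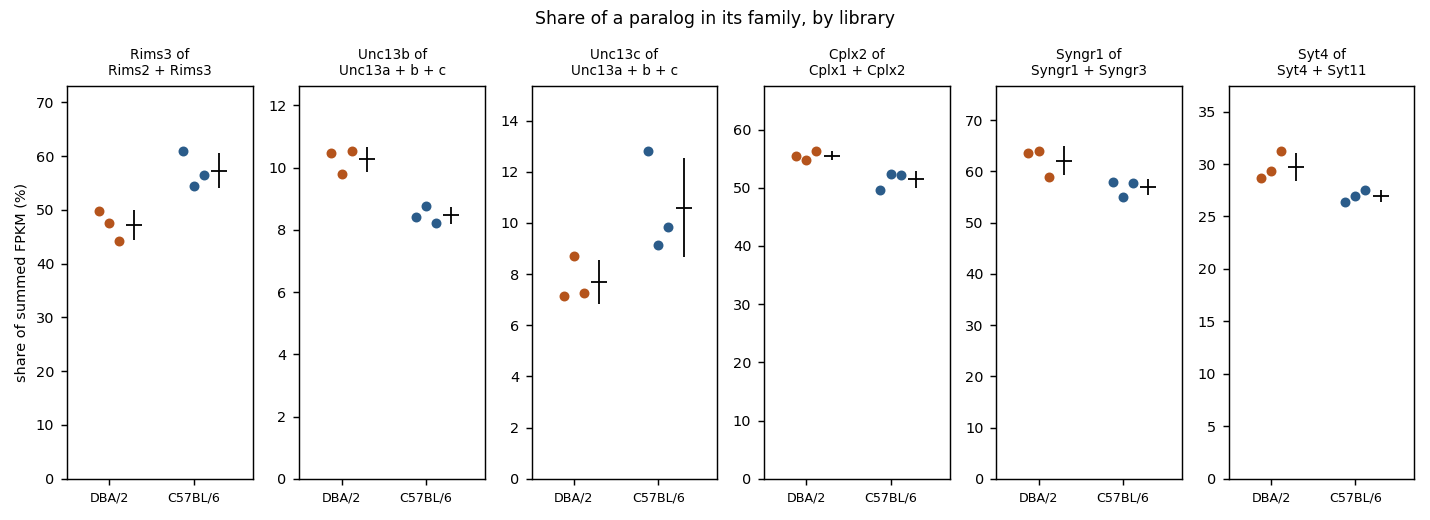
Share of 6 paralogs in the summed FPKM of their family (percent, axis from 0; points are libraries, crosses the mean ± SD of 3). In each panel the DBA/2 points lie on the left and the groups do not overlap, as for Rims3 at 47.2% in DBA/2 against 57.3% in C57BL/6.

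Of 142 further vesicle cycle genes tested, 17 were called higher and 20 lower in DBA/2, which is 26.1%, beside 22.8% of all tested genes. By list, with 18.4% to 37.9% called, the called genes were 3 higher and 3 lower of 26 for the fusion machinery, 1 higher and 5 lower of 22 for further synaptotagmins, 6 higher and 5 lower of 29 for active zone and Rab genes, 2 higher and 5 lower of 27 for the vesicle membrane and loading, and 5 higher and 2 lower of 38 for endocytosis. Rims4, which encodes the other short RIM protein, had 41.0, 41.5 and 44.3 CPM in DBA/2, against 64.7, 61.2 and 64.9 CPM in C57BL/6. It was lower by a clear margin (log2 fold change -0.59 ± 0.061, SE, adjusted p = 6.41e-08), and both short RIM genes were therefore lower in DBA/2. Rab3c, a relative of Rab3a, had 318, 362 and 363 CPM in DBA/2, against 465, 452 and 525 CPM in C57BL/6 (log2 fold change -0.47 ± 0.062, SE, adjusted p = 3.08e-05). Rab3b was higher, with a log2 fold change of 0.26 (adjusted p = 0.0215), as was Git1, an adaptor that regulates Arf GTPases, with 0.33 (adjusted p = 1.57e-05).

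Among fusion genes, Stxbp2 and Stxbp5, which encode Munc18-2 and tomosyn, were higher, at log2 fold changes of 0.35 and 0.27. Vamp3, a SNARE of recycling endosomes, and Snapin, a SNAP-25 binding protein, were lower, at -0.57 and -0.51. Snapin shares 15.5% of its exon bases, and Rab3b 9.0%, with 1 gene on the opposite strand each, and Syngr2 shares 7.7% with 1 gene on its own strand. Syt14 was higher at 0.27, and Syt2, a fast calcium sensor of brainstem and spinal synapses, and Sytl2 were lower at -0.39 each. Slc30a3, which encodes the ZnT3 transporter that loads zinc into mossy fibre vesicles, was higher at 0.32, as was the proton pump subunit gene Atp6v0a1 at 0.27. Syngr2 was lower at -1.20 but had under 10 CPM in every library. Atp6v0c was lower at -3.00, yet it has a near-identical copy, and with counts summed over similar transcripts the log2 fold change was -0.10 (adjusted p = 0.173). Of the endocytosis genes, Fcho1 and Ston1 were higher at 0.54 and 0.63, and Sh3gl2 and Dnm3, which encode endophilin A1 and dynamin 3, were lower at -0.30 and -0.29. Ston1 had only 4.05, 3.47 and 3.75 CPM in DBA/2, against 3.01, 1.75 and 2.44 CPM in C57BL/6. Its standard error was 0.22 and its adjusted p 0.0379, beside 8.92e-08 for Fcho1.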

How the data were processed

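RNA was measured in 6 hippocampus libraries, 3 per strain. Per the submitters' processing notes, reads were handled with Trimmomatic 0.30, HISAT2 2.0.1 and Cufflinks 2.2.1 on GRCm38; for the counting tool, annotation and strand setting, not given in the sources used here. In 1 table the authors deposited raw counts per gene and FPKM per gene, and 12 per-sample columns with no label here were not used. The deposited FPKM equalled counts over the deposited exonic gene length and total within 0.005. The CPM values are the deposited counts scaled by each library's TMM-adjusted total over tested genes.

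Genes kept by filterByExpr (minimum count 10), 17517 in all, were fitted with edgeR 4.0.16 in R 4.3.3 (TMM scaling, robust quasi-likelihood test, Benjamini-Hochberg adjustment over all genes, threshold 0.05, the 6 libraries, strain as the factor). On simulated data the test recovered most of the changed genes, and its share of false calls was above the nominal level. Alternatives used DESeq2 1.42.0, limma 3.58.1 (voom, and log2(FPKM + 1) and log2(FPKM + 0.1)), other scalings and filters, a replicate block, each library left out, and counts summed over transcripts that BLAST 2.17.0 matched at 95% identity or more. Gene positions and exon overlaps came from GENCODE M21, which holds 99.6% of the deposited gene IDs, and promoters from RefSeq (GRCm38.p6). Only genes with at least 10 counts over all libraries entered that search, which left out Rims1. No other release gene had a near-identical copy by that rule.

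Total counts per library were 13839366 to 20185683, and a floor of 3 counts per library was used. Floors cover counting error only. The members, role groups, marker lists and further vesicle cycle lists were chosen with earlier results of these data known. Values per library are given for called genes, for the gene of highest FPKM in each role group, for genes whose call changes under an alternative and for those named after their values were seen (Cplx1, Nsf and Rims1); of the further lists, the 2 called genes of largest change per direction are named.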

Additional observations from a re-analysis of the deposited data

How the results depend on the processing

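Without the 2 libraries high in Xist, 691 genes were called higher in DBA/2 and 1321 lower, of the release genes 1 higher (Bsn) and 1 lower (Rims3), and of the further vesicle cycle genes 8 higher and 12 lower; fewer libraries entered, and the cause was not tested further. Leaving out each library in turn gave 2 to 5 release genes higher and 3 to 6 lower. Signs were followed only for called genes, for the gene of highest FPKM in each role group and for genes whose call changed under an alternative. Among these, fold changes of 4 uncalled genes changed sign, and the cause was not tested. The signs of the other uncalled genes were not examined. Syt1 gave 0.0059 with DESeq2 size factors, 0.0242 with library size alone, 0.0006 with no filter on low counts, 0.0004 with a mean of at least 5 CPM, 0.0058 in the DESeq2 Wald test, 0.0001 in limma-voom, 0.0242 and 0.0243 in limma on FPKM and 0.0047 with summed copies, and between -0.0219 and 0.0262 with 1 library left out. Without the libraries high in Xist, Snap25 gave -0.0501, Rab3a 0.7313 and Slc17a7 -0.0372, and with 1 library left out Snap25 lay between -0.0385 and 0.0498 and Rab3a between -0.4989 and 0.1933. In the other fits, the calls of release genes numbered 5 or 6 higher and 4 to 7 lower.

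The replicate numbers do not pair the libraries by any label, and same-numbered libraries correlated at 0.13, -0.08 and 0 in their deviations. With the replicate block, 3827 genes were called, and 5 release genes were higher and 5 lower, with Pclo (adjusted p = 0.00297) and Slc17a6 (1.97e-09) called in place of Cplx2 (0.0553) and Vamp2 (0.0826). Scaling by library size alone made 46.9% of calls higher in DBA/2, beside 39.8%. With 3 libraries per strain, no release gene with an absolute log2 fold change under 0.1 was called, and Rab3a and Rims1 were limited by their counts.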
